A study of Mus musculus with 57 samples.

Results

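Lithium was compared directly with fluoxetine in the prefrontal cortex of wild-type (WT) mice, over 19 of the 57 RNA sequencing libraries of a study of Shank2 heterozygous (HT) mice. The members were chosen by the drug and genotype in the labels, namely 9 WT lithium libraries (5 males, 4 females) and 10 WT fluoxetine libraries (5 males, 5 females). The 8 WT vehicle libraries (4 males, 4 females) took no part in the comparison, and their values are given as background. For a second look at each gene in other animals, 10 HT lithium libraries were compared with 10 HT fluoxetine libraries (5 males and 5 females each). All mice were C57BL/6N and were sampled on postnatal day 25, after drug or vehicle had been given through the milk of the mother from day 3 to day 24. The labels give no dose, no litter and no measure of the drug that reached the pup. Where pups of 1 litter share a group, drug and litter cannot be told apart. The labels do not say how the samples of a group relate, so the p-values speak of the spread among libraries, which may be partly technical.

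Lithium, a mood stabilizer, inhibits glycogen synthase kinase 3 (GSK3) and several phosphatases of the inositol cycle. Fluoxetine, an antidepressant, blocks the serotonin transporter. The brain makes its own cholesterol because lipoproteins of the blood hardly cross the blood-brain barrier, and the genes of this pathway are switched on together by the transcription factor SREBP-2 when sterols in the endoplasmic reticulum run low.

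Values are normalized estimated counts, here called normalized values. Their totals were 31.1 to 33.2 M per library in the 19 libraries. Totals, genes above 0, the share of the 10 highest genes and the trend with transcript length did not differ detectably between the drugs (exact permutation test over 92378 regroupings, two-sided, adjusted p = 0.438 for each of the 4 measures). Shank2 ran from 9341 to 11790 in WT lithium libraries and from 8326 to 10780 in WT fluoxetine libraries, against 3877 to 5006 in the 30 HT libraries. Ddx3y, a gene of the Y chromosome, was at 1032 to 1689 in the 10 males and at most 1.19 in the 9 females. The cortical marker Slc17a7, the vesicular glutamate transporter of cortical excitatory neurons, separated the drugs in males, with 60870 to 64900 in lithium males and 51120 to 58700 in fluoxetine males. In females it overlapped, with 57690 to 62220 under lithium and 55450 to 62210 under fluoxetine. Tbr1, a transcription factor of deep-layer neurons, ran from 4138 to 4668 in lithium males and from 2624 to 3903 in fluoxetine males. In females it ran from 3988 to 4435 under lithium and from 4525 to 5436 under fluoxetine. Cux1, another marker of the cortical layers, went the other way in males, with 2487 to 2882 under lithium and 3037 to 3374 under fluoxetine. The listed layer markers summed to 45260 to 49480 in lithium males and 42730 to 46100 in fluoxetine males, with overlap. Their sums in females were 44680 to 47600 under lithium and 48510 to 50720 under fluoxetine. Markers of neighbouring tissue also differed in level between the libraries, which is described with the sexes.

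Between lithium and fluoxetine, 37 of 16659 genes tested passed an adjusted p under 0.05 (0.222%, and 9.99% at an unadjusted p under 0.05; limma on log2(value + 1), averaged over the sexes, with Benjamini-Hochberg adjustment over all genes tested). Under lithium 22 rose (0.132%) and 15 fell (0.09%). The changes were small, from 0.16 to 0.57 in size on the log2 scale with a median of 0.262. Every one of the 37 had the same sign in males and in females, which a call on the mean of both changes favours. In 12 of the 37 no lithium library overlapped any fluoxetine library, which was so in 23 genes (0.138%) of all tested. The changes could be followed in the HT mice, which share no library with this comparison but share the estimate of the spread. As no litter is given, WT and HT pups of the same drug may have shared mothers. In HT mice 177 genes (1.06%) passed the same test, and all 37 genes had the same sign as in WT. The share of all genes with the same sign was not counted. Across all genes tested the WT and HT changes had a Spearman correlation of 0.399. Of the 37, 17 also passed in HT, 11 as rises and 6 as falls, which is 45.9% of the WT calls and 9.6% of the HT calls.

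The number of calls rested on single libraries. It was 4 without lithium female 4, 5 without lithium male 3, 13 without fluoxetine male 2, 17 without fluoxetine female 3, 20 without fluoxetine female 2, 22 without lithium female 2, 23 without fluoxetine female 5, 24 without lithium male 2, and 56 without vehicle male 2, a library outside the comparison that shares in the estimate of the spread. Cdk19, Cdkl2, Hpca and Pnck passed in each of the 34 other fits run.

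**Figure D1:**
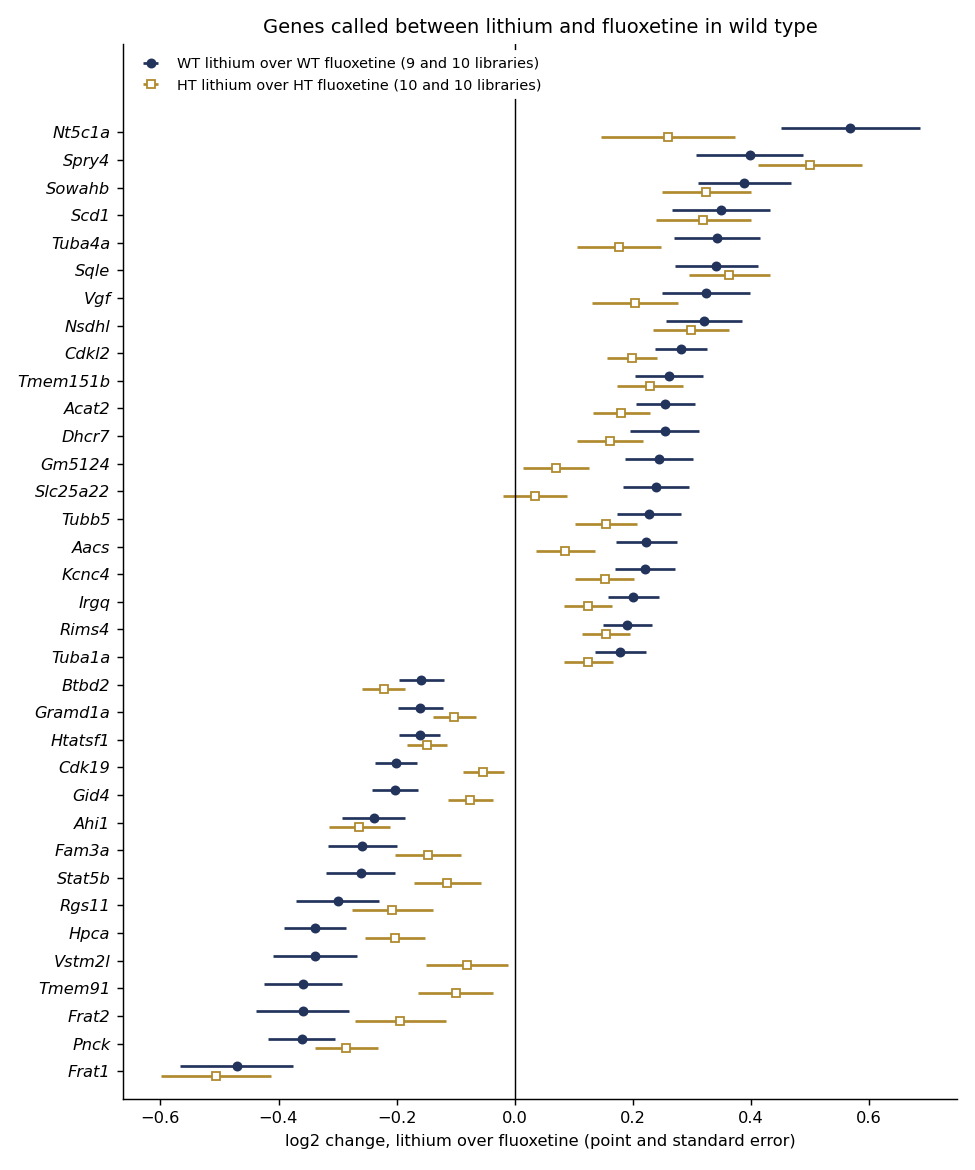
Of the 37 genes that passed between WT lithium and WT fluoxetine libraries, 35 are shown with the log2 change (lithium over fluoxetine) in WT as filled circles and in HT as open squares, and the standard error of the fit as bars. The WT changes run from -0.47 (Frat1) to 0.57 (Nt5c1a), and each HT change lies on the same side of 0.

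Genes of cholesterol synthesis were higher under lithium. Of 30 tested genes of cholesterol and fatty acid synthesis, 6 rose, among them Sqle, Nsdhl, Dhcr7 and Scd1, and none fell, beside 0.132% of all genes that rose. Unadjusted p-values under 0.05 belonged to 22 of the 30, all with higher values, beside 5.08% of all genes. The median log2 change was 0.233, with 28 of 30 above 0, beside -0.003 over all genes. In HT mice 14 of the 30 rose, beside 0.576% of all genes, and none fell (median 0.262).

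Sqle encodes squalene epoxidase, the first oxygen-using step towards sterols. Its lowest, median and highest values were 1853, 2375 and 2592 under lithium, 1464, 1902 and 2200 under fluoxetine and 1802, 2059 and 2488 under vehicle. The log2 change was 0.34 ± 0.07 (adjusted p = 0.0183, limma), with overlap of the 2 drug groups at their edges.

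Nsdhl, a sterol dehydrogenase that helps to remove methyl groups from lanosterol-derived sterols (chromosome X, 72918557 to 72958514, GRCm38), separated the drugs completely. Its values were 714 at the lowest, 758 at the median and 819 at the highest under lithium, against 512, 656 and 675 under fluoxetine and 567.8, 687.9 and 788.4 under vehicle. The log2 change was 0.32 ± 0.07 (SE, adjusted p = 0.0169, limma).

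Dhcr7 reduces the sterol ring in a last step of the pathway. Its lowest, median and highest values were 1150, 1247 and 1451 under lithium, 852, 1067 and 1275 under fluoxetine and 1027, 1140 and 1282 under vehicle. Its log2 change was 0.25 ± 0.06 (adjusted p = 0.0377, limma), a call kept in 9 of the 19 fits that left out a library of the comparison. The lithium libraries were higher and the groups overlapped.

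Scd1, which desaturates stearoyl-CoA and so makes oleate, ran from 5172 to 6997 under lithium, with a median of 5693. Under fluoxetine it ran from 3514 to 5128 (median 4831), so the drugs did not overlap, and under vehicle from 3543 to 5327 (median 4680). Its log2 change was 0.35 ± 0.08 (adjusted p = 0.0469, limma), a call kept in only 2 of the 19 fits that left out a library of the comparison.

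Acat2, Aacs and Gramd1a stand next to the pathway and were not in its list. Acat2, a thiolase that joins acetyl-CoA units (log2 0.26 ± 0.05, adjusted p = 0.012, limma), had medians of 1485 under lithium, 1237 under fluoxetine and 1408 under vehicle. Aacs, which activates acetoacetate for lipid synthesis (log2 0.22 ± 0.05, adjusted p = 0.0432), had medians of 2139 under lithium, 1884 under fluoxetine and 1876 under vehicle. The Aacs call was kept in 6 of the 19 fits that left out a library of the comparison. Gramd1a, a carrier that moves cholesterol from the plasma membrane to the endoplasmic reticulum, fell instead (log2 -0.16 ± 0.04, adjusted p = 0.0469, a call kept in only 1 of the 19 fits that left out a library and lost with equal library medians), with 2750 to 3214 under lithium, 3113 to 3535 under fluoxetine and 3139 to 3857 under vehicle.

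Among the 24 genes of the list that did not pass, Hmgcs1, an early enzyme of the pathway, had a log2 difference of 0.32 (adjusted p = 0.122, limma). Idi1, which isomerizes isopentenyl diphosphate, was at 0.27 (adjusted p = 0.182) and Cyp51, lanosterol demethylase, at 0.22 (adjusted p = 0.187). Hmgcs1, Idi1 and Cyp51 passed in HT mice with log2 changes of 0.42, 0.44 and 0.38. The early step Pmvk and the regulator Srebf1 were at -0.03 each (adjusted p = 0.916 and 0.937). Srebf2, the gene of SREBP-2, was at 0.17 (adjusted p = 0.261, limma). It passed in males (log2 0.28, adjusted p = 0.0428) and did not pass in HT mice (log2 0.18, adjusted p = 0.0992). Genes of this paragraph outside the rule for named genes were chosen after their values were seen.

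**Figure D2:**
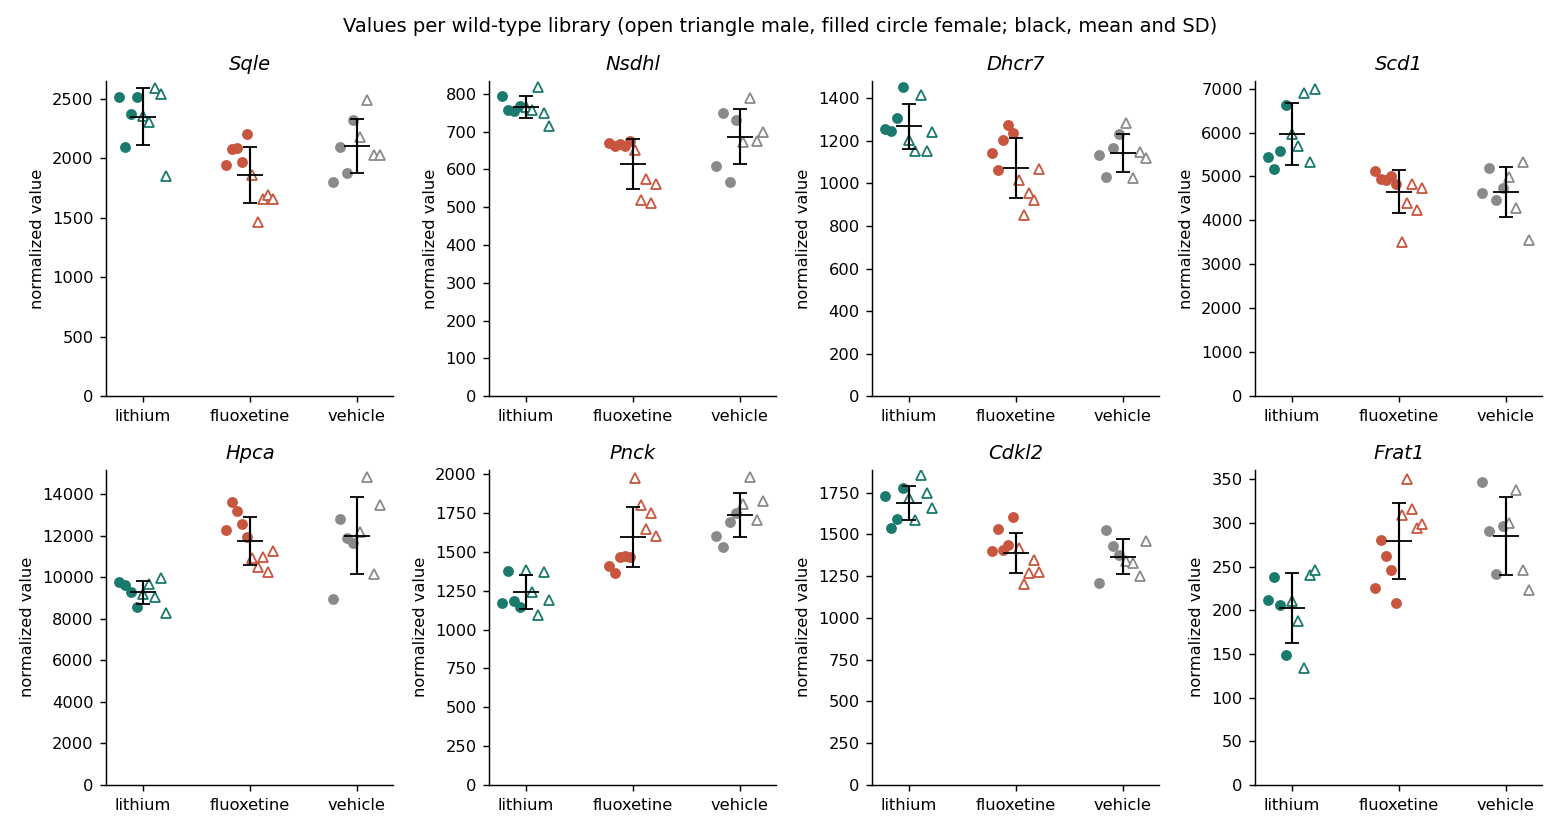
Normalized values of 8 called genes in each WT library, for lithium, fluoxetine and vehicle (open triangles, males; filled circles, females; black, mean and SD). The 4 upper genes belong to cholesterol and fatty acid synthesis and are higher under lithium (Nsdhl 714 to 819 against 512 to 675 under fluoxetine), while Hpca, Pnck and Frat1 are lower and Cdkl2 higher under lithium.

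The sequences before the start of these genes were read because the genes moved together. Promoters from RefSeq (GRCm38.p6) were at hand for 20 of the 30 listed genes, and the 250 bases before each annotated start were searched on both strands. The CCAAT box (CCAAT, read as ATTGG on the other strand), which NF-Y binds, stood in 17 of the 20 genes (85%), beside 40.1% of the 12086 tested genes with a promoter and 37.5% of all 27025 genes with one. It stood in 7 of the 14 called rising genes with a promoter and in 6 of the 11 falling ones (54.5%). A sterol element (TCACNCCAC) stood in 1 of the 20, Hmgcs1, beside 1.21% of tested genes. Both motifs were added after the results were known. Of the motifs listed earlier, the E-box (CACGTG) stood in 4 of 20, beside 9.43% of tested genes, the core CRE (TGACG) in 7 of 20, beside 29.0%, and the CRE (TGACGTCA), the TCF site (CTTTGAT) and the palindromic glucocorticoid element in 0 of 20, beside 2.9, 2.71 and 0.00827%. A full CRE is counted as a core CRE as well. A few of these windows are shown 5′ to 3′ with each CCAAT box in capitals: those of the called genes Nsdhl (chrX:72918271-72918520, plus strand) and Dhcr7 (chr7:143829964-143830213, plus strand, 1 of its 3 annotated starts and the only one with the box), and that of Hmgcs1 (chr13:119690101-119690350, plus strand), the gene with the sterol element. They show how the boxes are placed and do not show that a factor binds there.
Nsdhl: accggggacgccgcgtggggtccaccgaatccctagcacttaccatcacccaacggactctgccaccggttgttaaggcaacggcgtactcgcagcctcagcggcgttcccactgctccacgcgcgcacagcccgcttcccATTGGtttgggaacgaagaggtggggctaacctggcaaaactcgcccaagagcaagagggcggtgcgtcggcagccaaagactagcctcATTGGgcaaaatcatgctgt
Dhcr7: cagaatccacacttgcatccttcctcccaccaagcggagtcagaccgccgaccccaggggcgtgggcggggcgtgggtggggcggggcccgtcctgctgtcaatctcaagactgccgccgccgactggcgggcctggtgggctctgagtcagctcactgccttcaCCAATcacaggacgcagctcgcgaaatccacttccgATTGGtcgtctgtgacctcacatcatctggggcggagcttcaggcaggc
Hmgcs1: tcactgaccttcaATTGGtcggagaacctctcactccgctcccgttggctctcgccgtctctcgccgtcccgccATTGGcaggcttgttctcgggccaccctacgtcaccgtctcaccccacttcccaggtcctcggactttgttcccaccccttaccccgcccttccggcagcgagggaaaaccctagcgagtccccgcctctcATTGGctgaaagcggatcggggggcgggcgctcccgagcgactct

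Both Frat genes fell under lithium relative to fluoxetine. Their proteins bind GSK3 and keep it from axin. Frat1 (chromosome 19, 41829970 to 41832583) had 134 as lowest, 210.5 as median and 246 as highest value under lithium, 208, 288 and 350.3 under fluoxetine and 223, 294 and 346 under vehicle. Its log2 change of -0.47 ± 0.10 (SE, adjusted p = 0.0169, limma) was the largest fall among the called genes, and in HT mice it was -0.51 (adjusted p = 0.00299). Frat2 (chromosome 19, 41845972 to 41848132) had 140, 155 and 202 under lithium, 171, 209 and 232 under fluoxetine and 182, 205 and 262 under vehicle. Its log2 change was -0.36 ± 0.08 (adjusted p = 0.0268), and -0.19 in HT mice (adjusted p = 0.187). In both genes the lithium libraries were lower and the groups overlapped. Frat1 and Frat2 are close relatives that lie 13388 bases apart on opposite strands, and how their reads were shared between them is uncertain.

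The 250 bases before the start of each Frat gene (RefSeq, GRCm38.p6) held a core CRE close to the start, 8 bases before it in Frat1 (chr19:41829720-41829969, plus strand) and 12 bases before it in Frat2 (chr19:41848133-41848382, minus strand). They are shown because the pair moved together, with the core CRE (read as CGTCA on this strand) in capitals. Each window also holds CCAAT boxes, left in lower case here. Their longest shared run of bases is 14 long, just before the core CRE. A core CRE stood in 5 of the 11 called falling genes with a promoter (45.5%), in 5 of the 14 rising ones (35.7%) and in 29.0% of tested genes. The full CRE and the glucocorticoid element stood in none of these 25 called genes.
Frat1: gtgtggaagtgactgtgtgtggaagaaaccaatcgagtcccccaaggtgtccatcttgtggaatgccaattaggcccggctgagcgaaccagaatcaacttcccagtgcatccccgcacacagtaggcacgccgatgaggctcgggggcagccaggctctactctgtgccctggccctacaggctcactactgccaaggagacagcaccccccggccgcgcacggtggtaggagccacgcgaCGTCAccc
Frat2: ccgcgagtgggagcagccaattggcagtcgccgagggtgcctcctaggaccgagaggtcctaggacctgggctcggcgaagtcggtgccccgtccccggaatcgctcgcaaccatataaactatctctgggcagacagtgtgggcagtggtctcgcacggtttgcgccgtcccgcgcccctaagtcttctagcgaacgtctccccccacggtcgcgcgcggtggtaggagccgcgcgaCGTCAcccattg

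The GSK3 and beta-catenin pathway itself held no called gene among 35 tested, and Frat1 and Frat2 were not in that list. Its median log2 change was -0.008, with 2 genes higher and 4 lower at an unadjusted p under 0.05 (5.08 and 4.91% of all genes). Gsk3b was at 7367 to 8671 under lithium, against 6469 to 8765 under fluoxetine, with a log2 difference of 0.08 ± 0.06 (adjusted p = 0.683, limma). Gsk3a differed by -0.05 ± 0.04 (adjusted p = 0.746). Ccnd1, cyclin D1, a target gene of beta-catenin, ran from 1623 to 2583 under lithium, from 1452 to 1857 under fluoxetine and from 1409 to 2102 under vehicle. Its log2 difference of 0.26 ± 0.07 did not pass (adjusted p = 0.117), whereas in HT mice it rose by 0.47 (adjusted p = 0.000205). Ctnnb1, beta-catenin, differed by -0.12 (adjusted p = 0.258).

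The 3 smallest adjusted p-values belonged to genes of calcium signalling and protein kinases. Hpca encodes hippocalcin, a calcium sensor of neurons (chromosome 4, 129111570 to 129122036). It ran from 8255 to 9972 under lithium (median 9266), from 10230 to 13620 under fluoxetine (median 11600) and from 8946 to 14840 under vehicle (median 12030). All lithium libraries lay below all fluoxetine libraries, and the log2 change was -0.34 ± 0.05 (SE, adjusted p = 0.000284, limma). It also fell in HT mice (log2 -0.20, adjusted p = 0.036).

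Pnck, calcium/calmodulin-dependent protein kinase I beta (chromosome X, 73655994 to 73660117), had 1096, 1191 and 1385 as lowest, median and highest values under lithium, 1363, 1538 and 1972 under fluoxetine and 1528, 1727 and 1984 under vehicle. The drug groups overlapped at 1 edge, and the lithium libraries lay below the whole vehicle group as well. The log2 change was -0.36 ± 0.06 in WT (adjusted p = 0.000284) and -0.28 in HT (adjusted p = 0.00374, both limma).

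Cdkl2, a cyclin-dependent kinase-like kinase (chromosome 5, 92006074 to 92043883), was higher under lithium, with 1537, 1718 and 1855 as lowest, median and highest values, against 1201, 1403 and 1604 under fluoxetine and 1212, 1362 and 1525 under vehicle. Its log2 change was 0.28 ± 0.04 in WT (adjusted p = 0.000284) and 0.20 in HT (adjusted p = 0.0134, both limma).

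Cdk19, a kinase of the Mediator complex (chromosome 10, 40339564 to 40483818), separated the drugs, with 1953 to 2228 under lithium and 2268 to 2499 under fluoxetine. Vehicle libraries covered 1776 to 2360, reaching into both drug groups. The log2 change was -0.20 ± 0.04 (adjusted p = 0.00313, limma). In HT mice the log2 difference was -0.05 and did not pass (adjusted p = 0.469).

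Spry4, which feeds back on receptor tyrosine kinases and the ERK cascade (chromosome 18, 38586247 to 38601415), had 414, 521 and 626 as lowest, median and highest values under lithium, 295.9, 381.5 and 465.7 under fluoxetine and 345, 394 and 480.0 under vehicle. Its log2 change was 0.40 ± 0.09 in WT (adjusted p = 0.0377) and 0.50 in HT (adjusted p = 0.00183, both limma). Spry4 was the only called gene of 18 in the list of ERK feedback genes, which had a median log2 change of 0.069. At an unadjusted p under 0.05, 7 of the list were higher and 1 lower, beside 5.08 and 4.91% of all genes. Dusp6, the phosphatase that switches ERK off, ran from 1750 to 3070 under lithium and from 1406 to 2259 under fluoxetine, and its log2 difference of 0.40 ± 0.10 just missed the threshold (adjusted p = 0.0515). It passed in HT mice (log2 0.51, adjusted p = 0.00314). The kinase gene Mapk3, ERK1, differed the other way (log2 -0.22 ± 0.06, adjusted p = 0.11).

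Vgf, a neuropeptide precursor induced by neurotrophins, was the called gene of the 21 tested neurotrophic factors and receptors, whose median log2 change was -0.046. It ran from 5547 to 7483 under lithium, from 4337 to 5866 under fluoxetine and from 3940 to 7082 under vehicle, with a log2 change of 0.32 ± 0.07 (adjusted p = 0.0424, limma). Bdnf, brain-derived neurotrophic factor, had medians of 1047 under lithium, 862 under fluoxetine and 1002 under vehicle, and did not pass (log2 0.31 ± 0.09, adjusted p = 0.173). In HT mice Bdnf rose (log2 0.39, adjusted p = 0.0224). Its receptor gene Ntrk2 differed by 0.01 ± 0.04 (adjusted p = 0.955).

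Among the rises were 3 tubulin genes. Tuba4a ran from 19180 to 24360 under lithium, from 13950 to 20650 under fluoxetine and from 15150 to 21060 under vehicle (log2 0.34 ± 0.07, adjusted p = 0.0218, limma). Tubb5 changed by 0.23 ± 0.05 (adjusted p = 0.0487) and Tuba1a by 0.18 ± 0.04 (adjusted p = 0.0494), each kept in 3 of the 19 fits that left out a library. Tuba1a did not overlap between the drugs, with 48510 to 53950 under lithium and 42770 to 48480 under fluoxetine. Tubulin genes have near-identical copies, so their separate levels are uncertain.

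Nt5c1a, a cytosolic nucleotidase that makes adenosine from AMP, had the largest rise, from a low level. Its lowest, median and highest values were 87.9, 104 and 128 under lithium, 53.5, 73.0 and 85.4 under fluoxetine and 35.2, 70.1 and 91.1 under vehicle. The drugs did not overlap, and the log2 change was 0.57 ± 0.12 (SE, adjusted p = 0.0179, limma). Sowahb rose by 0.39 ± 0.08 (adjusted p = 0.0169), with medians of 524 under lithium, 387 under fluoxetine and 395 under vehicle.

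Further rises included genes of membrane transport and the synapse. They were Kcnc4, a voltage-gated potassium channel (log2 0.22), Slc25a22, a mitochondrial glutamate carrier (0.24), and Rims4, a protein of presynaptic active zones (0.19). Irgq (0.20), Tmem151b (0.26) and the transcribed pseudogene Gm5124 (0.24) also rose. The adjusted p-values of all these genes ran from 0.0203 to 0.0469 (limma). Reads of Gm5124 may belong to its parent gene, so its level is uncertain.

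The other falls included Tmem91 and Vstm2l, both without overlap between the drugs. Tmem91 ran from 257 to 342 under lithium, from 351 to 440.0 under fluoxetine and from 328 to 494 under vehicle (log2 -0.36 ± 0.07, adjusted p = 0.00582, limma). Vstm2l ran from 1562 to 2020 under lithium, from 2090 to 2583 under fluoxetine and from 1920 to 2875 under vehicle (log2 -0.34 ± 0.07, adjusted p = 0.0184). Rgs11, which speeds the switching-off of G proteins, fell by 0.30, Stat5b, a transcription factor of cytokine and growth hormone signalling, by 0.26, Fam3a by 0.26, Ahi1, a protein of the primary cilium, by 0.24, and Gid4, which picks substrates for a ubiquitin ligase, by 0.20. Htatsf1 and Btbd2 fell by 0.16 each. The calls of Ahi1, Fam3a and Btbd2 were kept in 8, 7 and 3 of the 19 fits that left out a library of the comparison. That of Btbd2 was also lost with equal library medians. Gid4 separated the drugs, with 2065 to 2423 under lithium and 2497 to 2842 under fluoxetine, while vehicle (2214 to 2668) lay across both.

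No gene of the inositol or serotonin lists passed. The list of lithium-inhibited phosphatases and the inositol cycle had 0 calls among 35 tested genes by limma and a median log2 change of -0.003. At an unadjusted p under 0.05, 3 were higher and 0 lower, beside 5.08 and 4.91% of all genes. Inpp1, an inositol polyphosphate phosphatase that lithium inhibits, had medians of 945 under lithium, 800.1 under fluoxetine and 848 under vehicle (log2 0.26 ± 0.10, adjusted p = 0.324). Impa1, inositol monophosphatase, differed by 0.03 ± 0.04 (adjusted p = 0.858), its relative Impa2 by 0.21 ± 0.26 (adjusted p = 0.835) and Bpnt1, another lithium-inhibited phosphatase, by 0.08 ± 0.04 (adjusted p = 0.465).

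Serotonin genes likewise held 0 calls among 20 tested, with a median log2 change of -0.027. At an unadjusted p under 0.05, 1 gene was higher, beside 5.08% of all genes. That gene was the receptor Htr5a, with 746 to 953 under lithium and 654 to 849 under fluoxetine (log2 0.14 ± 0.05, adjusted p = 0.345, limma). Htr1a differed by -0.10 ± 0.08, Htr2a by -0.08 ± 0.06 and Htr2c by 0.13 ± 0.13 (adjusted p = 0.695, 0.705 and 0.802). Slc6a4, the serotonin transporter that fluoxetine blocks, is made in the raphe and was below the minimum mean here, with 0 to 6.54 under lithium, 0 to 6.54 under fluoxetine and 0 to 9.82 under vehicle.

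Neither the glucocorticoid and FOXO targets nor the respiratory chain held a called gene over both sexes by limma. The 31 glucocorticoid and FOXO target genes had a median log2 change of -0.133. At an unadjusted p under 0.05, 8 were lower and 0 higher, beside 4.91 and 5.08% of all genes. In HT mice 8 of the 31 fell, beside 0.486% of all genes (median -0.230). Foxo3, a transcription factor of the insulin pathway, ran from 3067 to 3685 under lithium and from 3440 to 3879 under fluoxetine (log2 -0.14 ± 0.05, adjusted p = 0.242, limma). The 76 nuclear-encoded genes of the respiratory chain had a median of 0.073, with 70 above 0, beside a median of -0.003 over all genes. At an unadjusted p under 0.05, 17 were higher, beside 5.08% of all genes. Ndufb6, a subunit of complex I, did not overlap between the drugs, with 1119 to 1363 under lithium and 939 to 1109 under fluoxetine, and just missed the threshold (log2 0.20 ± 0.05, adjusted p = 0.0515). Its vehicle values of 1078 to 1615 covered the lithium range. Pvalb, the calcium buffer of fast-spiking interneurons, ran from 508 to 621 under lithium, from 356 to 538 under fluoxetine and from 307 to 871 under vehicle (log2 0.39 ± 0.12, adjusted p = 0.173).

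The drugs differed far more often in males than in females. In males 536 genes (3.22%) passed, 237 higher (1.42%) and 299 lower (1.79%) under lithium, and 31 of the 37 genes were among them. In females 2 genes (0.012%) passed, the falls of Hpca and Cdk19, with 1241 genes at an unadjusted p under 0.05 (7.45%). That count was 0 without fluoxetine female 2, 1 without fluoxetine female 1, 3 or 5 or lithium female 1 or 2, and 4 without lithium female 4. The typical standard error was alike, 0.104 in males and 0.11 in females at the median gene. The difference of the change between the sexes, male minus female, passed in 106 genes (0.636%), 23 upward (0.138%) and 83 downward (0.498%). Each of the 106 had opposite signs in males and in females, which a call on the difference favours. None of the 106 passed in females (lowest adjusted p 0.0581, limma). None of the 37 genes was among these 106.

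Markers of tissue next to the prefrontal cortex moved with these sex results. Markers of the olfactory bulb (19 in the table, 18 tested) summed to 8116 to 12290 in lithium males and 19790 to 38890 in fluoxetine males. In females they summed to 10450 to 16800 under lithium and 7447 to 11330 under fluoxetine. The mitral cell transcription factor Eomes was at 8.99 to 142 in lithium males and 324 to 769 in fluoxetine males, and at 48.4 to 273 in lithium females and 4.45 to 87.1 in fluoxetine females. Of the 19 markers, Barhl2 alone was at 0 in some libraries. In males 14 of the 18 tested bulb markers fell, beside 1.79% of all genes, with a median log2 change of -1.57, while in females none passed and the median was 0.70. Markers of striatal projection neurons (21 in the table, 20 tested) summed to 27100 to 37000 in lithium males, 24400 to 27960 in fluoxetine males, 25440 to 38230 in lithium females and 27380 to 61910 in fluoxetine females. Isl1 and Six3 were at 0 in some libraries. Over both sexes the bulb markers had a median log2 change of -0.445 in WT and -0.781 in HT, the striatal markers one of -0.139 in WT and -0.197 in HT, and none of either list passed. In these bulk samples, more cells of a type and more RNA per cell cannot be told apart.

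With the striatal and bulb levels of each library as terms in the fit, 5 genes passed in males (limma). The bulb sums of the drugs did not overlap in males, so the bulb term can take up part of a drug change there. In that fit 0 passed in females, with 1239 at an unadjusted p under 0.05, and 0 in the difference between the sexes, with 1016. In the same fit 47 genes passed over both sexes, 35 of them among the 37. The calls in males were 60 without fluoxetine male 2, 64 without lithium male 3, 136 without lithium male 4, 199 without fluoxetine male 5, 225 without fluoxetine male 4, 242 without lithium male 2, 342 without lithium male 5 and 839 without vehicle male 2.

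**Figure D3:**
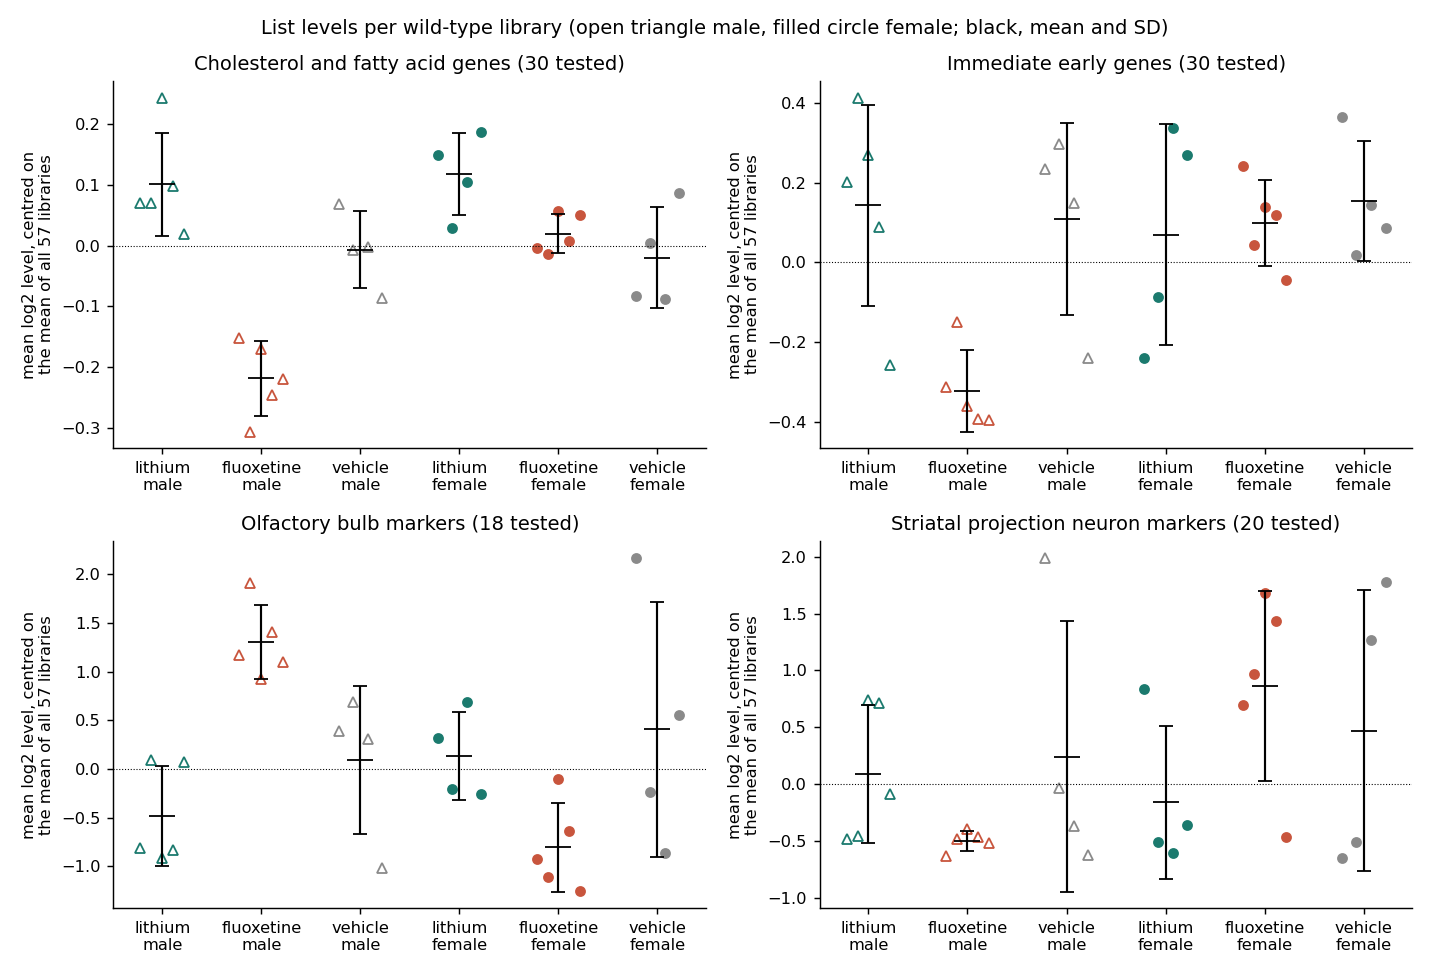
Mean log2 level of 4 gene lists in each WT library, centred on the mean of all 57 libraries, by drug in males (left 3 groups) and females (right 3 groups), with mean and SD in black. Fluoxetine males are low for cholesterol genes (-0.31 to -0.15) and immediate early genes (-0.40 to -0.15) and high for olfactory bulb markers (0.93 to 1.91).

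In males 15 of the 30 cholesterol and fatty acid genes rose, beside 1.42% of all genes, and none fell (median 0.357). In females none passed, with a median of 0.107, and 3 were higher at an unadjusted p under 0.05, beside 3.78% of all genes. By sign, 25 of the 30 were higher in both sexes. Sqle averaged 2328 ± 292 in lithium males and 1666 ± 141 in fluoxetine males (SD, n = 5 each), against 2179 ± 218 in vehicle males (n = 4). In females it averaged 2375 ± 198 under lithium (n = 4), 2054 ± 103 under fluoxetine (n = 5) and 2022 ± 234 under vehicle (n = 4). The mean log2 level of the list was 0.02 to 0.24 in lithium males, -0.31 to -0.15 in fluoxetine males and -0.09 to 0.07 in vehicle males. In females it was 0.03 to 0.19 under lithium, -0.01 to 0.06 under fluoxetine and -0.09 to 0.09 under vehicle. No gene of the list passed the test of the difference between the sexes, whose median was 0.24. With the striatal and bulb levels as terms, the medians came to 0.261 in males and 0.207 in females. No gene of the list passed in males, where 5 of all genes tested passed. Over both sexes 6 of the 30 rose in that fit and none fell, with a median of 0.236. The count over all genes in that fit is given above.

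**Figure D4:**
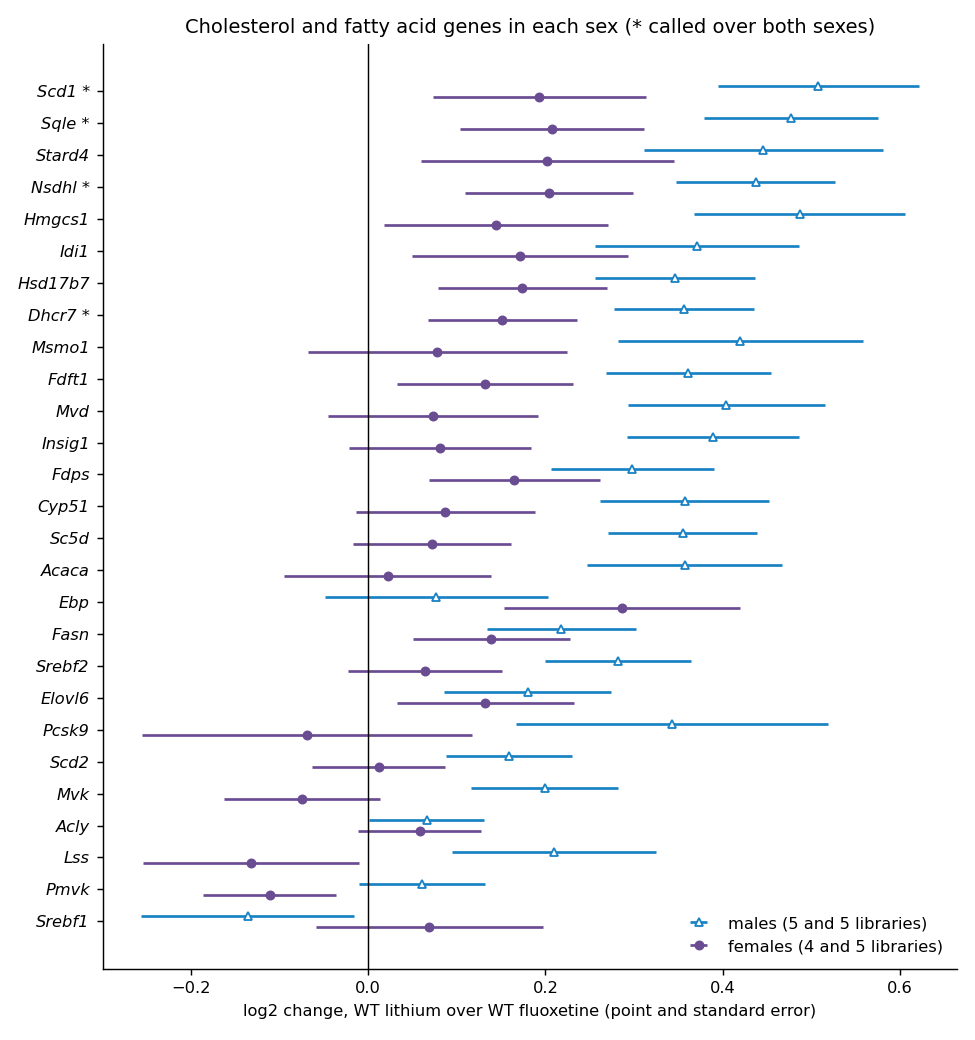
Log2 change (WT lithium over WT fluoxetine) of 27 of the 30 cholesterol and fatty acid genes in males (open triangles) and females (filled circles), with the standard error of the fit. The median of all 30 is 0.357 in males and 0.107 in females, and asterisks mark genes called over both sexes.

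Immediate early genes, which neurons switch on within minutes of activity, differed between the drugs in males. Over both sexes 0 of 30 passed by limma, with a median log2 change of 0.22. At an unadjusted p under 0.05, 11 were higher and 0 lower, beside 5.08 and 4.91% of all genes. In males 11 of the 30 rose, beside 1.42% of all genes, and none fell (median 0.39). In females none passed, with a median of -0.07. Egr1 averaged 9111 ± 2635 in lithium males, 4767 ± 637 in fluoxetine males (SD, n = 5 each) and 7350 ± 1534 in vehicle males (n = 4). In females it averaged 7984 ± 2821 under lithium (n = 4), 8238 ± 1017 under fluoxetine (n = 5) and 7896 ± 791 under vehicle (n = 4). Its male log2 change was 0.89 (adjusted p = 0.017, limma). Arc, which tags active synapses, changed by 1.41 in males and differed by -0.56 in females, a difference between the sexes of 1.97 (adjusted p = 0.048). In males Arc averaged 5420 under lithium, 1999 under fluoxetine and 5242 under vehicle. In females it averaged 4346, 5806 and 5757 in the same order. With the striatal and bulb levels as terms, 3 of the 30 passed in males, beside 5 of all 16659 genes tested. The list median in that fit was 0.59 in males and -0.075 in females.

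Among the genes with the smallest p for the difference between the sexes, fluoxetine males and fluoxetine females lay apart. Sox8, a transcription factor of glia, averaged 1293 ± 70.4 in lithium males and 1053 ± 48.2 in fluoxetine males (n = 5 each), and 1131 ± 106 in lithium females (n = 4) and 1541 ± 66.4 in fluoxetine females (n = 5). The difference of the log2 change, male minus female, was 0.74 (adjusted p = 0.00713, limma). Acan, aggrecan, the core proteoglycan of perineuronal nets, averaged 110 ± 12.3 in lithium males and 239 ± 23.9 in fluoxetine males, and 164 ± 33.1 in lithium females and 94.2 ± 7.58 in fluoxetine females. Its difference was -1.90 (adjusted p = 0.00748).

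Cdkn1a, a brake on the cell cycle, averaged 932 ± 128 in lithium males and 1383 ± 164 in fluoxetine males, and 1178 ± 152 in lithium females and 784 ± 95.0 in fluoxetine females. The difference was -1.16 (adjusted p = 0.00813, limma). Ctxn3 differed by -1.97 (adjusted p = 0.00813) and Pappa, a protease that frees insulin-like growth factors, by -2.55 (adjusted p = 0.0106). In each of these 5 genes the lithium and the fluoxetine libraries of males did not overlap. They were picked by the smallest p for this difference, which favours such a gap, and the share over all genes was not counted. Junb, an immediate early gene chosen for the plot after its values were seen, differed by 1.48 (adjusted p = 0.016). Of the 106 genes (0.636% of all tested), 6 were among the 18 bulb markers tested (Th, Dlx5, Dlx1, Tshz1, Sp8 and Prokr2). Another 3 were among the 30 immediate early genes tested (Arc, Dusp1 and Junb).

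The count of 106 moved with most libraries. It was 11 without lithium female 1 or lithium male 3, 12 without lithium female 2, 13 without fluoxetine male 2, 14 without lithium male 4, 15 without fluoxetine female 2 or fluoxetine male 4, 21 without fluoxetine female 5, 23 without lithium female 3, 38 without lithium male 2, 39 without fluoxetine female 4 or fluoxetine male 5, 53 without fluoxetine female 3 or fluoxetine male 1 and 55 without fluoxetine female 1. It was 161 without lithium female 4, 308 without lithium male 1 and 289 without vehicle male 2.

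**Figure D5:**
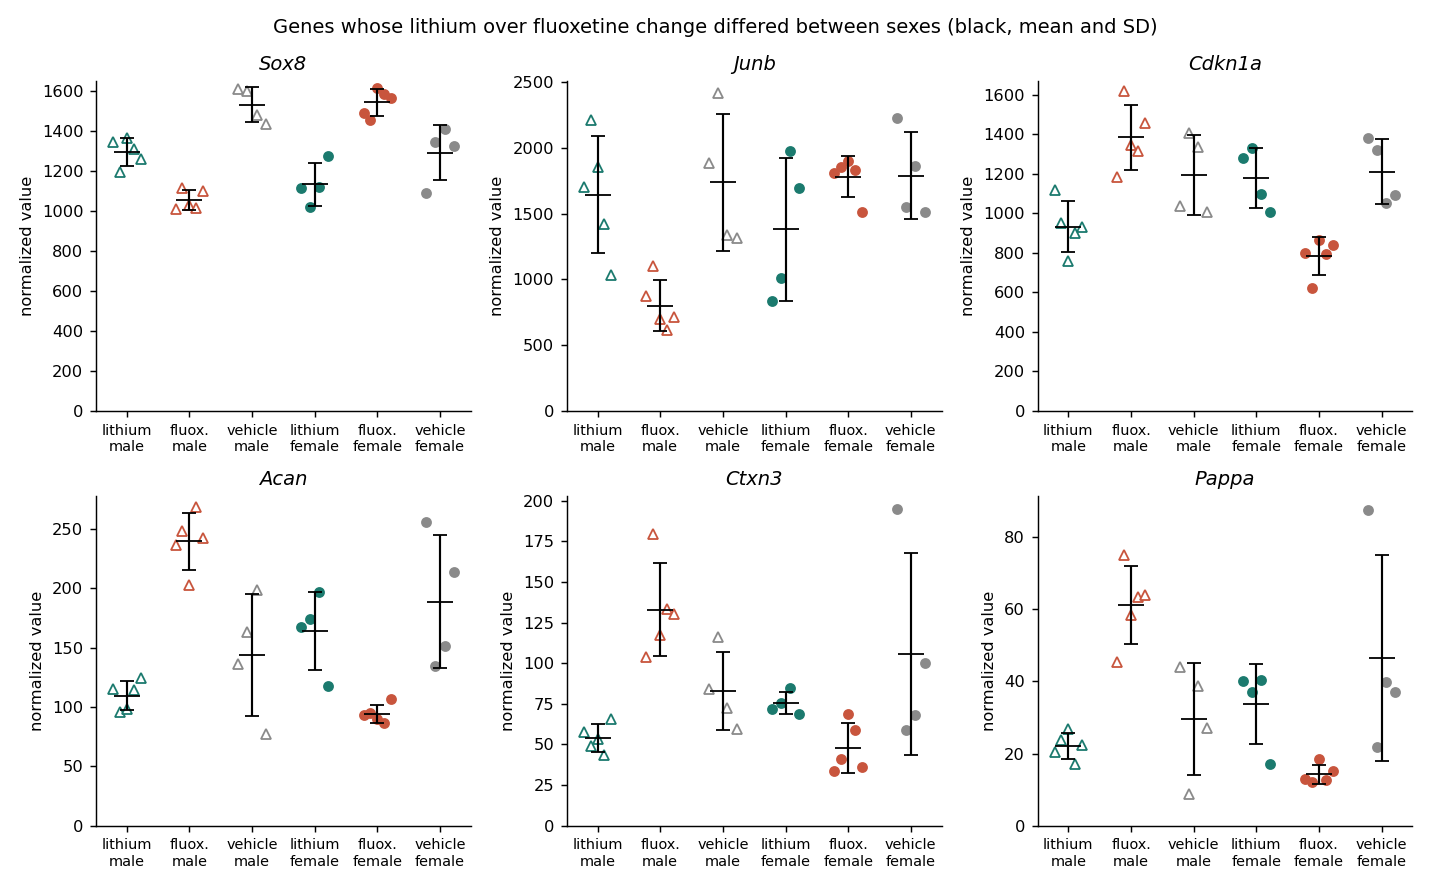
Normalized values of 6 genes whose lithium over fluoxetine change differed between the sexes, by drug in males (left 3 groups) and females (right 3 groups), with mean and SD in black. Fluoxetine males and fluoxetine females lie apart in each gene (Sox8 1053 ± 48.2 in males and 1541 ± 66.4 in females).

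The drug change was set against that in HT mice by testing the difference itself. No gene passed in the difference WT minus HT (0%, limma), with 634 genes at an unadjusted p under 0.05 (3.81%). The smallest p-values belonged to Atg4d, a protease of autophagy (log2 change 0.20 in WT and -0.09 in HT), Slitrk2, a synaptic adhesion protein (-0.11 in WT and 0.19 in HT), and Gemin5, which helps to assemble spliceosomal particles (0.13 in WT and -0.08 in HT), each with an adjusted p of 0.999. Across all genes tested the WT and HT changes had a Pearson correlation of 0.339 and a Spearman correlation of 0.399, given as a description, since genes are not independent replicates.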

How the data were processed

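RNA of the prefrontal cortex was sequenced after a stranded mRNA kit, per the labels. The authors deposited 1 signal value for each gene and library, made of estimated counts from Salmon 0.11.2 normalized with DESeq2 1.19.11 in R 3.6.0 on GRCm38, per the submitters' processing notes; the sources used here give neither annotation release nor strand setting nor filters. They carry a factor per gene and library, so whole reads could not be had and a count test could not be used; limma took its place. Depth in reads is therefore unknown, and the totals of the normalized values are no depth. Of 51456 identifiers, 51285 had a symbol, and coordinates come from GENCODE on GRCm38, 1-based.

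From these values log2(value + 1) was computed for the 16659 genes that averaged 10 or more across the 57 libraries. One limma 3.58.1 fit (R 4.3.3, trend and robust moderation) held all 12 groups of genotype, drug and sex, so that they share an estimate of the spread. The change is the mean of the male and female changes, lithium over fluoxetine, on the log2(value + 1) scale, which understates changes of low genes. P-values were adjusted by Benjamini-Hochberg over all genes tested, at a threshold of 0.05. The fit was checked on simulated data.

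Named genes were the drug targets, the 10 largest called rises and falls, the 5 of each with the smallest adjusted p, the leading genes of the sex and genotype differences and up to 4 genes per list; others were chosen after their values were seen. The members and lists were chosen with earlier results of these data known. Alternatives changed the pseudocount, filter, libraries in the fit, moderation, scaling, weights, a replicate block, a length term and dissection terms, and left out libraries. Replicate numbers did not pair the samples. A few genes are counted in the totals but not reported here by name.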

Additional observations from a re-analysis of the deposited data

Results flagged for a closer look

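Single libraries stood far from the others of their sex and drug in 6 of 272 groups checked, where chance gives about 1 in 20. Hapln4 was at 1850 in lithium female 2, against 2090 to 2140 in the other lithium females. Rgs11 was at 743 in lithium female 1 (others 800 to 808), and Pappa at 17.2 in lithium female 4 (others 36.9 to 40.3). Bpnt1 was at 1680 in lithium male 3 (others 1790 to 1820). Frat2 was at 171 in fluoxetine male 3 (others 216 to 232), and Ntrk2 at 23200 in fluoxetine male 1 (others 25000 to 25500).

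The lithium over fluoxetine change differed between males and females in 6 named genes by the test of the difference (limma, adjusted p of 0.00713 to 0.04). Male minus female, it was 0.74 for Sox8, -1.16 for Cdkn1a, -1.57 for Dlx5, -1.9 for Acan, -1.97 for Ctxn3 and -2.55 for Pappa. Olfactory bulb markers moved with these values (19790 to 38890 summed in fluoxetine males, 7447 to 11330 in fluoxetine females). None of the 6 passed with the striatal and bulb levels as terms. Dlx5 is itself a bulb marker, and the bulb sums of lithium males (8116 to 12290) and fluoxetine males did not overlap. The bulb term can therefore take up part of a drug change in males, and the cause was not tested.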

How the results depend on the processing

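Counts of called genes are given over both sexes, in males, in females and in the difference between the sexes (37, 536, 2 and 106 as reported). They were 19, 241, 7 and 20 with no filter on low values, 362, 1775, 39 and 1389 when the fit held the compared groups alone, and 533, 2715, 83 and 1739 with quality weights. The replicate block, on numbers that do not pair the samples (same-number correlations of -0.078 to 0.041), gave 218, 1355, 19 and 851. Without moderation by trend and robust the counts were 23 over both sexes and 53 for the difference. A length term gave 88 over both sexes. In females a mean of at least 50 gave 4 and quantile normalization 5. With dissection terms 5 passed in males, 0 in females and 0 in the difference. Leaving out 1 library gave 4 to 50 over both sexes, 60 to 744 in males, 0 to 4 in females and 11 to 308 for the difference. Without vehicle male 2 the counts were 56, 839 and 289 over both sexes, in males and for the difference. Without that library, vehicle female 1 and HT fluoxetine male 3, an alternative chosen after seeing the data, they were 182, 1356, 3 and 658. The genotype difference kept 0 calls in each of the other fits run (limma, 634 genes at an unadjusted p under 0.05 as reported). Ntrk2 changed sign to -0.02 with quantile normalization. The cause of these shifts was not tested. Pseudocounts of 0.5 and 10 gave 37 and 36 calls over both sexes. Equal library medians moved the median of all genes to 0.0115 from -0.0031. Read depth is unknown, which limits what can be said of low genes.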
